A study of Mus musculus with 4 samples.

Results

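Ccl5-high Pdcd1-negative CD8 T cells were taken from single-cell RNA sequencing of leukocytes sorted from mouse pancreatic tumours. They were chosen by raw UMI counts (unique molecules of a transcript counted in a cell). A cell had to hold at least 2 UMIs summed over the T cell receptor chains Cd3e, Cd3d and Cd3g, at least 2 summed over Cd8a and Cd8b1, and at least 2 of the chemokine gene Ccl5. It had to hold 0 UMIs of Cd4, of Pdcd1 (the inhibitory receptor PD-1) and of the B cell gene Cd79a, and at most 1 summed over the cell cycle genes Mki67 and Top2a. In all, 537 of 14855 kept cells (3.61%) met the rule, 298 from AT38-treated mice and 239 from vehicle-treated mice.

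All mice were C57BL/6 animals carrying B6KPC3 tumours, a pancreatic cancer line implanted into the pancreas, which had grown for 7 days when treatment began. One group received the compound AT38, for which the labels give a code name and no more, at 30 mg/kg per day in 1% carboxymethyl cellulose for 7 days by intraperitoneal injection. The other received that vehicle alone. Each group had 2 libraries of CD45-enriched cells, and each pooled 4 mice, so that n counts libraries and single animals cannot be told apart. The title places the work in the field of nitrosative stress and cytotoxic T lymphocytes.

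CD8 T cells recognise peptides on MHC class I and kill target cells with granzymes and perforin. Naive and circulating memory CD8 T cells express Tcf7, Lef1, Klf2, S1pr1 and Ccr7, which hold the cells in a resting state and let them move through lymph nodes and blood. Cells that settle in a tissue lose these genes and express Cxcr6, Itgae and Itga1. Chronic stimulation in a tumour brings PD-1, other inhibitory receptors and the transcription factor Tox. Ccl5 is made by antigen-experienced CD8 T cells, so that the gate takes such cells without a detected PD-1 transcript.

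The AT38 libraries held 162 and 136 of these cells, and the vehicle libraries 66 and 173. Their median depth was 5272.5 and 4991 UMIs with AT38 and 5567 and 4723 UMIs with vehicle. Summed over the cells, the AT38 libraries gave 1352681 and 845849 UMIs and the vehicle libraries 473258 and 1223616. The whole libraries held 24294215 to 34386076 UMIs. No barcode of a member occurred in a second library, against 17 barcodes shared among all kept cells. The rule's own genes are a description. The median Ccl5 count of a member was 15.5 and 19 UMIs with AT38 and 17.5 and 14 with vehicle. At the edge, 5 and 6 members with AT38 and 4 and 12 with vehicle had exactly 2 UMIs of Ccl5, and 10 and 14 cells with AT38 and 9 and 10 with vehicle fell just outside with 1. Far more cells stood just outside the Pdcd1 limit. These cells, with 1 UMI of Pdcd1, numbered 65 and 83 with AT38 and 25 and 70 with vehicle.

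The label was checked on a marker that the rule did not use. With every cell thinned to 2000 UMIs, which leaves out 17 shallower members, Nkg7 (a protein of cytotoxic granules) was detected in 77.1% to 84.6% of members per library. Without thinning the members' share was 95.4% to 97.0%. In B cells of the same libraries the thinned share was 1.13% to 2.30%, at median depths of 2692 to 3677 UMIs before thinning. In the other CD8 classes defined below it was 82.9% to 90.9% (Pdcd1-positive) and 37.5% to 55.0% (naive-like). Nkg7 therefore does not set the members apart from Pdcd1-positive cells. The NK cell list, led by Fcer1g, which myeloid cells also express, summed to 1017 and 533 CPM (counts per 1e6 UMIs of the pooled cells) with AT38 and to 668 and 1093 CPM with vehicle. Only 4 members held a UMI of Trdc, the gamma-delta receptor constant gene, and Klrb1c (NK1.1) stood at 0.817 to 8.13 CPM. RNA of other cell types was present. Of the 537 members, 156 (29.1%) held at least 3 UMIs summed over Lyz2, C1qa, Csf3r, H2-Aa, Cd79b, Ighm and Krt18, genes of myeloid, B and epithelial cells. They were 63 and 26 cells with AT38 and 15 and 52 with vehicle. The dendritic cell list summed to 11280 and 5430 CPM with AT38 and to 4116 and 11606 CPM with vehicle. The neutrophil list summed to 6061 and 1137 CPM with AT38 and to 1435 and 1987 CPM with vehicle. Its top gene in AT38 1 was S100a8, at 2361 CPM, and 1 cell held 2314 of the 3194 UMIs of S100a8 there. The macrophage and monocyte list summed to 3038 and 1222 CPM with AT38 and to 957 and 2506 CPM with vehicle. The red blood cell list was at 0 in all 4 libraries. The tests across genes below are therefore also given without the cells holding such RNA, called other-cell UMIs here.

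The first comparison asks whether the members' share differed with AT38. The members formed 4.44% and 4.24% of kept cells in the AT38 libraries, against 2.20% and 3.47% in the vehicle libraries. The groups did not overlap. The share averaged 4.34% ± 0.141 with AT38 and 2.83% ± 0.896 with vehicle (SD, n = 2 each). The edgeR quasi-likelihood test on cell numbers gave a log2 fold change of 0.58 ± 0.27 (SE) with an adjusted p of 0.168, and the exact two-sided permutation p was 0.333, the smallest that 2 against 2 libraries allow. Limiting cells to at most 5% mitochondrial UMIs gave 0.87 ± 0.18 with an adjusted p of 0.0386, past the threshold of 0.05. With members holding RNA of other cells left out, it was 0.53 ± 0.26 with an adjusted p of 0.180. Without vehicle 1 the log2 fold change was 0.32, and without vehicle 2 it was 0.98. The members did not pass in this test with all libraries, where other classes had these values. CD8 T cells with Pdcd1 UMIs had 0.69 ± 0.23 (edgeR adjusted p = 0.107) and NK cells 0.61 ± 0.09 (adjusted p = 0.0456). Neutrophils had -0.38 ± 0.03 (adjusted p = 0.0202) and B cells -0.76 ± 0.25 (adjusted p = 0.107). Without the highest doublet scores NK cells did not pass (edgeR adjusted p = 0.0649). With cells thinned to 2000 UMIs before the gate, NK cells (0.16 ± 0.34, edgeR adjusted p = 0.841) and neutrophils (-0.49 ± 0.24, adjusted p = 0.103) did not pass. B cells passed there (-0.84 ± 0.25, edgeR adjusted p = 0.0297). At most 5% mitochondrial UMIs gave 1.04 ± 0.18 for CD8 T cells with Pdcd1 UMIs (adjusted p = 0.0326).

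Within the CD8 compartment the members' share differed by less than the spread between libraries. Of 1517 non-cycling CD8 T cells, members were 39.3% and 31.0% with AT38 and 31.9% and 37.7% with vehicle. These ranges overlapped, and the mean difference of 0.363 percentage points had an exact permutation p of 1. Pdcd1-positive CD8 T cells, which passed the same gate with at least 1 UMI of Pdcd1 and any Ccl5, averaged 54.3% ± 4.71 of this compartment with AT38 and 52.3% ± 3.97 with vehicle (SD, n = 2 each). Naive-like CD8 T cells had no Ccl5 or Pdcd1 UMI and at least 2 UMIs summed over Ccr7 and Lef1. They averaged 2.49% ± 0.943 with AT38 and 4.59% ± 0.335 with vehicle, with both AT38 libraries below both vehicle libraries and an exact permutation p of 0.333. They were few, with 13 and 8 cells in the AT38 libraries and 10 and 20 in the vehicle libraries.

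**Figure D1:**
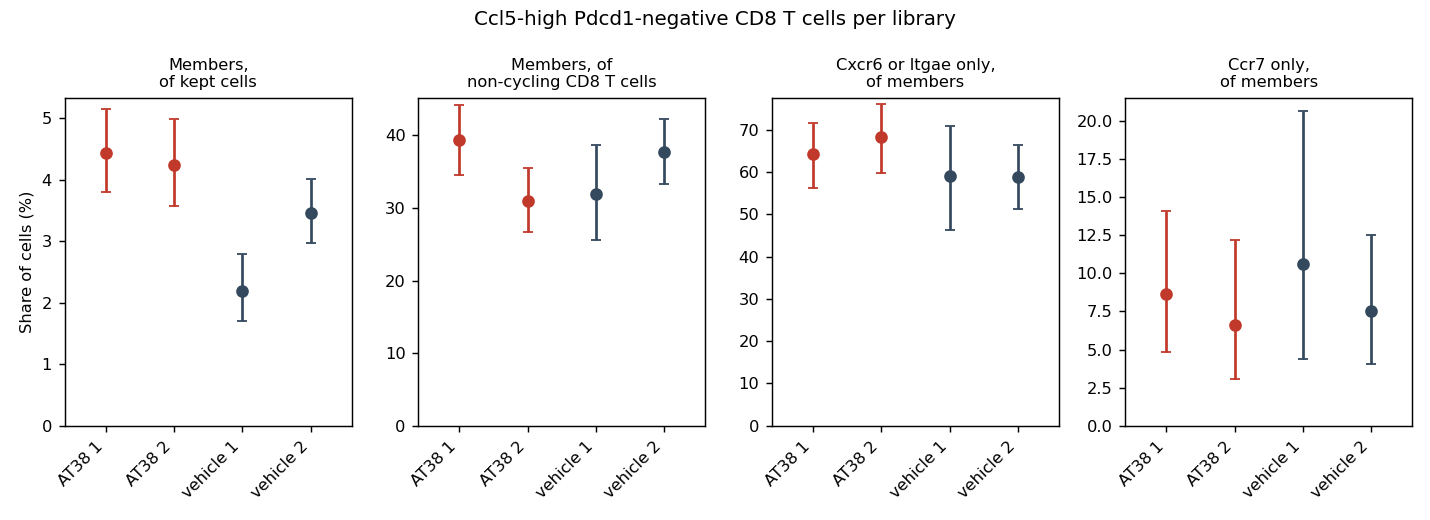
Share of the members among kept cells and among non-cycling CD8 T cells, and share of the members with Cxcr6 or Itgae UMIs only or with Ccr7 UMIs only, in % per library with 95% exact binomial intervals. The AT38 libraries (red) stand at 4.44% and 4.24% of kept cells, above the vehicle libraries (dark) at 2.20% and 3.47%, while the shares of CD8 T cells overlap.

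Compared with the 804 Pdcd1-positive CD8 T cells of the same libraries, the members had more RNA of genes of naive and recirculating T cells and of immediate early genes, and less of inhibitory receptors and of Xcl1. Gzma, Gzmb, Gzmk, perforin (Prf1) and interferon gamma (Ifng) did not pass the test between the classes. In a fit with the library as a block, 227 of 9192 genes (2.47%) passed an adjusted p of 0.05 (edgeR quasi-likelihood test, Benjamini-Hochberg over all genes), 122 (1.33%) higher and 105 (1.14%) lower in members. The median log2 difference over all genes was 0.01. The members were shallower than Pdcd1-positive cells, which had median depths of 7286 and 6692 UMIs with AT38 and of 8016 and 6852 with vehicle. Both classes come from 1 CD8 gate split by Pdcd1, and only the members needed Ccl5, so a gene that goes with Pdcd1 or with Ccl5 in single cells differs through the rule.

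Of 11 tested naive and recirculating genes, 5 were higher in members, none was lower and 10 had a positive log2 difference, with a median of 0.90. S1pr1, the receptor that lets T cells leave tissues toward blood and lymph, stood at 88.7 and 82.8 CPM with AT38 and 123 and 79.3 CPM with vehicle in members. In Pdcd1-positive cells it stood at 11.3 and 10.7 CPM with AT38 and 23.6 and 17.0 CPM with vehicle. Every member value was above every Pdcd1-positive value, and the difference was 2.64 ± 0.17 (log2, SE) with an edgeR adjusted p of 4.04e-07. Lef1, a transcription factor of naive and stem-like T cells, was 2.39 ± 0.21 higher on the log2 scale. Its partner Tcf7 had 117 and 148 CPM with AT38 and 203 and 159 CPM with vehicle in members, against 40.4 and 42.1 CPM with AT38 and 60.4 and 70.3 CPM with vehicle in Pdcd1-positive cells. The Tcf7 difference was 1.57 ± 0.12 and again the classes did not overlap. Klf2, which switches on S1pr1, had 542 and 500.1 CPM with AT38 and 807 and 687 CPM with vehicle in members. In Pdcd1-positive cells it had 251 and 163 CPM with AT38 and 320 and 213 CPM with vehicle, a difference of 1.46 ± 0.10. Foxp1, a factor of T cell quiescence, also passed. Ccr7, the receptor that guides T cells into lymph nodes, had a negative difference (-0.44 ± 0.30) and did not pass, but without cells holding other-cell UMIs it was lower in members (-0.96 ± 0.21, edgeR adjusted p = 0.00529).

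Memory and homing genes were mixed. Eomes, a transcription factor of memory CD8 T cells, had 52.5 and 62.7 CPM with AT38 and 88.8 and 91.5 CPM with vehicle in members, against 24.1 and 19.0 CPM with AT38 and 21.2 and 33.1 CPM with vehicle in Pdcd1-positive cells. The groups were apart and the difference was 1.57 ± 0.17 (edgeR adjusted p = 6.85e-05). Cxcr3, a receptor for interferon-induced chemokines, was 1.09 ± 0.16 higher, and the integrin gene Itgb7 0.76 ± 0.11. Of 14 chemokine receptor and homing genes, 3 were higher (S1pr1, Cxcr3 and Itgb7) and 1 was lower, the tissue-homing receptor gene Cxcr6 (-0.42 ± 0.08, adjusted p = 0.0139). Of 12 tested memory genes, 3 passed, all higher (Eomes, Cxcr3 and Ly6a). Ly6c2, a surface protein of circulating memory cells, was at 197 to 393 CPM in members and 28.6 to 76.2 CPM in Pdcd1-positive cells, but did not pass (2.36 ± 0.49, adjusted p = 0.186). At 2000 UMIs per cell, Ly6c2 was detected in 22% to 29.2% of members and in 3.97% to 6.22% of Pdcd1-positive cells per library, with 0.656% to 4.51% in B cells. Without thinning the members' range was 26.5% to 42.4%. Nrarp, a regulator of the Notch pathway (2.00 ± 0.27), and Sidt1, a membrane protein of RNA transport (2.02 ± 0.20), were also among the largest differences.

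Of 11 immediate early genes, 7 were higher in members, with a median of 0.52 and a positive difference for all 11. They were Fos, Fosb, Jun, Junb, Ier2, Zfp36 and Btg2, which respond within minutes to signals from receptors. Jun (AP-1 subunit) had 940 and 746 CPM with AT38 and 1071 and 953 CPM with vehicle in members, and 642 and 514 CPM with AT38 and 674 and 686 CPM with vehicle in Pdcd1-positive cells. The difference was 0.58 ± 0.07. Cd69, an activation and retention protein, was 0.65 ± 0.08 higher. Of 11 T cell receptor signalling genes and of 16 type I interferon response genes, none passed.

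Inhibitory receptors were lower. Of 13 tested inhibitory receptor and exhaustion genes, 5 were lower in members (Lag3, Havcr2, Ctla4, Cd160 and Tox), none was higher, and the median was -0.44. Lag3, an inhibitory receptor for MHC class II, had 134 and 167 CPM with AT38 and 182 and 142 CPM with vehicle in members, against 306 and 318 CPM with AT38 and 233 and 271 CPM with vehicle in Pdcd1-positive cells. The classes did not overlap (-0.85 ± 0.11, edgeR adjusted p = 0.00111). Cd160 fell by 0.90 ± 0.13, Havcr2 (TIM-3) by 0.80 ± 0.17, Tox by 0.63 ± 0.10 and Ctla4 by 0.44 ± 0.09 on the log2 scale. At 2000 UMIs per cell, Lag3 was detected in 23.5% to 27.7% of members and 33.3% to 45.9% of Pdcd1-positive cells, with 0.211% to 0.658% in B cells. Havcr2 was detected in 6.06% to 7.01% of members and 10.5% to 16.7% of Pdcd1-positive cells, with 0% to 1.97% in B cells. Without thinning the members' shares were 42.4% to 45.7% for Lag3 and 13.2% to 21.2% for Havcr2.

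Among costimulatory receptors, Tnfrsf4 (OX40) was lower by 1.31 ± 0.15, Tnfrsf9 (4-1BB) by 0.72 ± 0.10 and Tnfrsf18 (GITR) by 0.57 ± 0.11, whereas Cd28 was higher by 0.40 ± 0.09. Of 13 such genes, 3 were lower and 2 higher. Xcl1, the chemokine that draws cross-presenting dendritic cells, had 352 and 441 CPM with AT38 and 389 and 435 CPM with vehicle in members. Pdcd1-positive cells had 706 and 905 CPM with AT38 and 843 and 997 CPM with vehicle. All 4 member values were below all 4 others (-1.06 ± 0.08, edgeR adjusted p = 1.13e-06). Nrgn, which encodes a calmodulin-binding protein, had the largest fall among the genes picked by the naming rule (-1.91 ± 0.12).

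For most killing genes no difference passed the test. Of 17 cytotoxic effector genes, Gzmm was higher (1.91 ± 0.47) and Cst7, an inhibitor of granule proteases, lower (-0.68 ± 0.11). Gzmb had 168 and 171 CPM with AT38 and 256 and 183 CPM with vehicle in members, against 276 and 199.99 CPM with AT38 and 209 and 133 CPM with vehicle in Pdcd1-positive cells. The ranges overlapped (-0.04 ± 0.20, adjusted p = 0.980). At 2000 UMIs per cell, Gzmb was detected in 15.2% to 21.5% of members, 14.4% to 25.4% of Pdcd1-positive cells and at most 1.88% of B cells. Without thinning it was detected in 25.0% to 29.6% of members. Gzma (1.09 ± 0.34), Gzmk (0.50 ± 0.16), Prf1 (-0.37 ± 0.19), Ifng (-0.20 ± 0.10), Nkg7 (-0.32 ± 0.09) and Ccl4 (0.10 ± 0.29) did not pass either.

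Several calls depended on single libraries, on the depth of the gate or on other-cell RNA. The count was 138 genes without AT38 1, 43 without AT38 2, 348 without vehicle 1 and 87 without vehicle 2, and DESeq2 called 95. Without cells holding other-cell UMIs it was 631 of 6883 (9.17%), 186 of them among the 227, and there Nkg7 and Prf1 passed as lower, Gzmk passed as higher and Xcl1 no longer passed (adjusted p = 0.0897). With 1 library left out, Gzmm passed in none of the 4 fits. Tnfrsf18, Ctla4, Ly6a, Cxcr6 and Zfp36 passed only without vehicle 1. Havcr2 did not pass without AT38 1 or AT38 2, Cd28 and Fosb not without AT38 2 or vehicle 2, Junb and Cst7 not without AT38 2 and Fos not without AT38 1. DESeq2 did not call Tnfrsf18, Ctla4, Ly6a, Havcr2 or Cd28, and Fos and Zfp36 did not pass with the highest doublet scores removed. When cells were thinned to 2000 UMIs before the gate, so that some Pdcd1-positive cells counted as members, 195 genes passed, 52 of them among the 227. In that gate S1pr1, Lef1, Tcf7, Klf2, Nrarp, Itgb7, Cd69, all 7 immediate early genes, Lag3, Cd160, Tnfrsf4 and Tnfrsf18 still passed. There Sidt1, Eomes, Cxcr3, Cxcr6, Ly6a, Cd28, Xcl1, Nrgn, Tox, Havcr2, Ctla4, Tnfrsf9 and Cst7 did not, and Ly6c2 (2.02) and Ccl4 did. Genes of dendritic cells and neutrophils stood among the largest differences, with Cd209a 2.93 ± 0.37 higher and Mmp9 1.60 ± 0.23 lower. Cd209a did not pass without AT38 1 or AT38 2, and Mmp9 not without AT38 2 or without cells holding other-cell UMIs. All UMIs of Cd209a in members lay in the 156 cells with other-cell UMIs, and the part of these cells in the other differences was not tested beyond their removal.

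**Figure D2:**
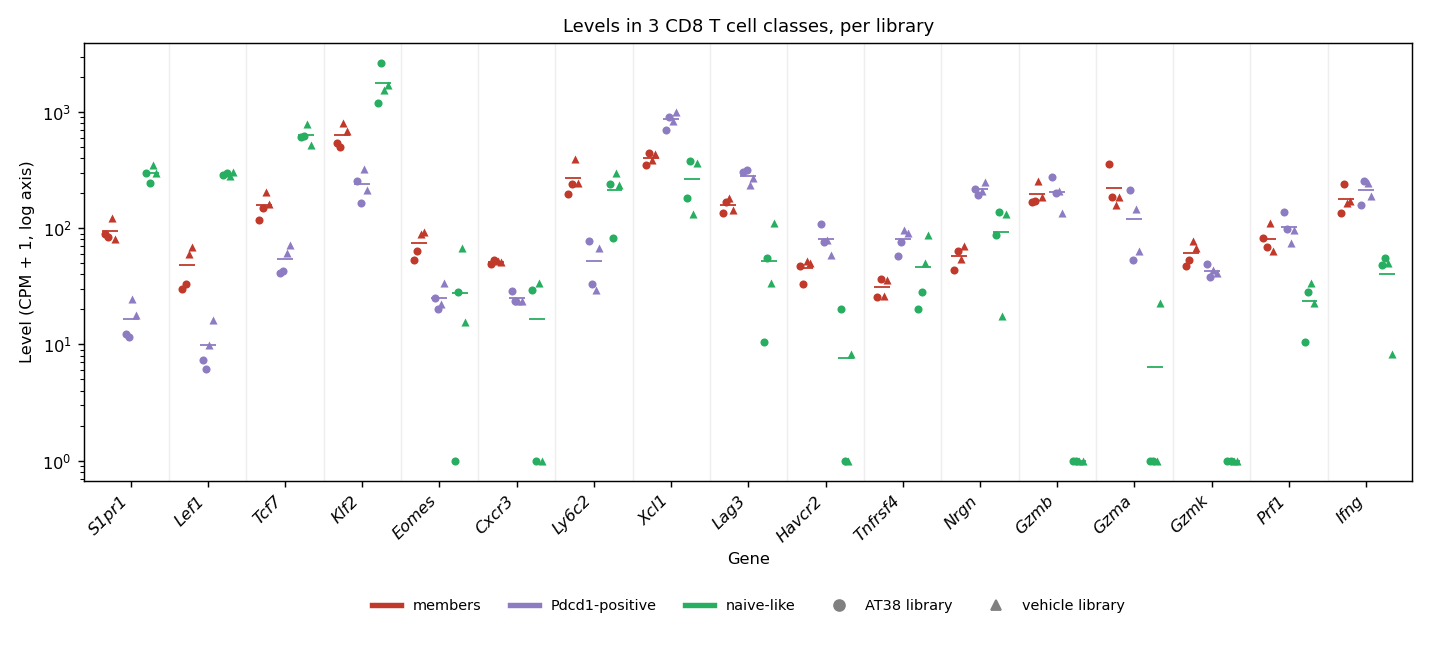
Level of 17 genes in members (red), Pdcd1-positive (violet) and naive-like (green) CD8 T cells, as CPM plus 1 on a log axis, with 1 point per library (circles AT38, triangles vehicle) and a line at the mean of 4 libraries. S1pr1, Tcf7 and Klf2 of members lie between the naive-like and the Pdcd1-positive cells, while Gzmb, Gzmk, Prf1 and Ifng overlap those of the Pdcd1-positive cells.

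The bases before the transcription start of 4 genes are shown because they are 2 that were higher in members than in Pdcd1-positive cells (Klf2 and Eomes) and 2 that were lower (Xcl1 and Havcr2). They are from RefSeq on build GRCm38.p6, 250 bases each, 5′ to 3′ on the gene's strand. Capitals mark a match on either strand to GGAAA (the core bound by NFAT factors), TGANTCA (AP-1) or CTTTGA (TCF and LEF factors).
Klf2, chr8:72318812-72319061, plus strand: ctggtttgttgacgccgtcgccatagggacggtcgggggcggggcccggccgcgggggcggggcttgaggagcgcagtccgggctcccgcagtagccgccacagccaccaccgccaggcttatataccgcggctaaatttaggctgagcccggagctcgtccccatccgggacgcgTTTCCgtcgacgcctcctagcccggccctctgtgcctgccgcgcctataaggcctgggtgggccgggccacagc
Eomes, chr9:118477939-118478188, plus strand: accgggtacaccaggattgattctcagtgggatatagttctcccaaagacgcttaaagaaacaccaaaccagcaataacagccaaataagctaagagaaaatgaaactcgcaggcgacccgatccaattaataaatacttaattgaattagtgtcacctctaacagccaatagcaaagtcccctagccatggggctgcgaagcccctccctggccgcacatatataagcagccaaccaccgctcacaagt
Xcl1, chr1:164935523-164935772, minus strand: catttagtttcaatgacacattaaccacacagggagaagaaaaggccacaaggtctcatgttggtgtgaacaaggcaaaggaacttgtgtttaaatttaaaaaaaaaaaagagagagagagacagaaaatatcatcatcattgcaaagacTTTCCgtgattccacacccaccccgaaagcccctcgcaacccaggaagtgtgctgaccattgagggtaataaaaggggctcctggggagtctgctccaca
Havcr2, chr11:46454681-46454930, plus strand: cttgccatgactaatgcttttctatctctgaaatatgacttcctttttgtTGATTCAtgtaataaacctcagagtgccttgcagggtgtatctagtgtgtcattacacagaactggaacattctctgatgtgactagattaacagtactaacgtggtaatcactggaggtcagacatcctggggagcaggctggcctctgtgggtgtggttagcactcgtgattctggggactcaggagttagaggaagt
GGAAA was found once before Klf2 and once before Xcl1, and is present in 55.6% of the 32851 windows of this length before all genes. TGANTCA was found once, before Havcr2, and is present in 6.75% of all windows. CTTTGA is in 13.8% of all windows and was not found in these 4, which says only that these letters are not in these windows. No match is shown to be a bound site.

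Set against the 51 naive-like cells, the members had higher levels of granzymes, perforin, interferon gamma, integrins of tissue residency and effector regulators. They had lower levels of the naive genes that the rule of the naive-like class did not use. That rule asks for Ccr7 or Lef1 and for no Ccl5, which the members need. A gene that goes with Ccr7, Lef1 or Ccl5 in single cells therefore differs through the rules. In the fit with the library as a block, 297 of 5379 genes (5.52%) passed, 149 (2.77%) higher and 148 (2.75%) lower in members, and the median over all genes was 0.07. Of 15 cytotoxic genes, 11 were higher and 14 had a positive difference, with a median of 1.53, also when the genes at 0 in naive-like cells were set to their bound. Gzmb (granzyme B, a protease that triggers death of the target) had 168 and 171 CPM with AT38 and 256 and 183 CPM with vehicle in members, against 0 in all naive-like libraries. It was at least 20.9-fold higher in members against a floor of 3 counts over the group (edgeR adjusted p = 5.77e-14). Gzmk, also at 0 in all naive-like libraries, was at least 6.52-fold higher. Gzma (granzyme A) had 355 and 186 CPM with AT38 and 156 and 186 CPM with vehicle in members, and 0 to 21.8 CPM in naive-like cells, a difference of 4.60 ± 0.52 (log2, SE). Ifng was higher by 2.23 ± 0.40, Nkg7 by 1.40 ± 0.19 and Prf1 (perforin) by 1.80 ± 0.53.

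Of 9 residency genes, 4 were higher and all 9 had a positive difference. Itga1 (CD49a, which binds collagen) had 155 and 197 CPM with AT38 and 173 and 132 CPM with vehicle in members, and at most 19.0 CPM in any naive-like library (3.62 ± 0.51). Cxcr6, a receptor for a chemokine of the tissue, was higher by 1.80 ± 0.30 and Itgae (CD103, which binds E-cadherin) by 1.45 ± 0.35. The effector regulators Id2 (1.13 ± 0.19), Prdm1 (2.62 ± 0.70) and Tbx21 (1.57 ± 0.51) and the memory genes Il2rb, Cd44 and Eomes were also higher. So were Lag3 (1.39 ± 0.37), Tnfrsf9 (1.77 ± 0.34) and the NK receptor genes Klrk1 (1.37 ± 0.40) and Klrc2 (2.27 ± 0.46). Cxcr3, S100a4 and Ly6c2 did not pass, and Ly6c2 differed by 0.14 ± 0.25.

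Of 9 tested naive and recirculating genes, 7 were lower in members and none higher, with a median of -2.01. Tcf7 had the values given above in members, against 609 and 624 CPM with AT38 and 793 and 522 CPM with vehicle in naive-like cells (-2.11 ± 0.22, edgeR adjusted p = 5.97e-15). For Satb1, a chromatin organiser of T cells, the difference was -2.01 ± 0.20, for S1pr1 -1.78 ± 0.26 and for Klf2 -1.51 ± 0.17. Dapl1, a gene of resting CD8 T cells, had the largest fall among the genes picked by the naming rule (-4.18 ± 0.53). Of 10 mitochondrially encoded genes, 8 were lower, with a median of -0.47. Tcf7, S1pr1 and Klf2 of members lay below the naive-like and above the Pdcd1-positive level in each of the 4 libraries.

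The naive-like class limits this comparison, since its 5 deepest cells held 46.4% to 73.4% of its UMIs. Without AT38 1, AT38 2, vehicle 1 and vehicle 2 in turn, the count was 175, 172, 177 and 277, and DESeq2 called 140. Il2rb passed in none of these 4 fits, and Eomes only in the one without vehicle 1. Prf1, Tbx21 and Lag3 passed only in the one without vehicle 2. Prdm1 did not pass without AT38 2 or without vehicle 2, Klrk1 not without AT38 2 or without vehicle 1, Itgae not without AT38 2 and Cd44 not without AT38 1. DESeq2 did not call Il2rb, Eomes, Prf1, Tbx21, Lag3, Klrk1 or Itgae. Without cells holding other-cell UMIs 253 of 3283 genes (7.71%) passed, and Prf1 and Eomes did not. The dendritic cell chemokine Ccl17 was among the largest rises, at 16.9 to 273 CPM in members and 0 in all naive-like libraries, and was at least 12.4-fold higher against the same floor. Of its UMIs in members, 99.5% lay in cells with other-cell UMIs, as did 99.2% of those of Ccl22.

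The members were not uniform. Cells with at least 1 UMI of Cxcr6 or Itgae and none of Ccr7 are called tissue-type here, and cells with the reverse Ccr7-type. Mature dendritic cells also express Ccr7, and 87.8% of the members' Ccr7 UMIs lay in cells with other-cell UMIs. The 5 cells richest in Ccr7 held 69.3% to 88.5% of its UMIs per library. The tissue-type cells were 104 and 93 members with AT38 and 39 and 102 with vehicle. The Ccr7-type cells were 14 and 9 with AT38 and 7 and 13 with vehicle, and of these 7 and 1 with AT38 and 4 and 5 with vehicle held other-cell UMIs. The tissue-type share was 64.2% and 68.4% with AT38, against 59.1% and 59.0% with vehicle. The groups did not overlap, and the share averaged 66.3% ± 2.96 with AT38 and 59.0% ± 0.0929 with vehicle (SD, n = 2 each, exact permutation p = 0.333). The intervals of the single libraries overlap in the plot of shares. The Ccr7-type share was 8.64% and 6.62% with AT38 and 10.6% and 7.51% with vehicle, which overlapped. Members with UMIs of both kinds were 8.02% and 5.88% with AT38 and 15.2% and 8.09% with vehicle. The tissue-type share leaves these members out. With them counted in, the shares of members with Cxcr6 or Itgae UMIs overlap between AT38 and vehicle.

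Detection in single cells is given as a description of 520 members pooled over 4 libraries and thinned to 2000 UMIs. Ccr7 was detected in 5.29% of cells with Cxcr6 and in 15.4% of cells without it. Ly6c2 was detected in 4.31% of cells with Itgae and 31.9% of cells without it, and in 9.23% of cells with Lag3 and 31.3% of cells without it. Ly6c2 was detected in 35.1% of the 57 cells with Ccr7 and 24.6% of the others, but in vehicle 2 alone in 26.3% and 27.2%. Ifng was detected in 27.2% of cells with Gzmb and 27.3% of cells without it. Cxcr6 was detected in 44.6% of cells with Gzmb and 43.5% of cells without it. Single libraries differed, since in AT38 1 Cxcr6 was in 34.5% of Gzmb cells and 44.5% of the others, and in AT38 2 in 70.0% and 44.6%.

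Between the tissue-type and the Ccr7-type members, with the library as a block and Cxcr6, Itgae and Ccr7 left out of the counts, 213 of 3596 genes (5.92%) passed. Of these, 58 (1.61%) were higher and 155 (4.31%) lower in tissue-type members, and the median over all genes was 0.02. The subsets were split on Cxcr6, Itgae and Ccr7, so a gene that goes with these in single cells differs through the rule. Some inhibitory receptors were higher in tissue-type members although all members lack detected Pdcd1. Of 9 inhibitory receptor and exhaustion genes, 4 were higher (Lag3, Ctla4, Tox and Nr4a2) and none lower, with a median of 1.95. Lag3 had 197 and 221 CPM with AT38 and 290 and 177 CPM with vehicle in tissue-type members, against 77.7 and 37.3 CPM with AT38 and 0 and 10.9 CPM with vehicle in Ccr7-type members. The subsets did not overlap (2.48 ± 0.51, edgeR adjusted p = 0.0137). Ctla4 was higher by 2.03 ± 0.26 and Tox by 2.13 ± 0.46, while Havcr2 did not pass (2.67 ± 0.77, adjusted p = 0.0624).

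Of 15 cytotoxic genes, 4 were higher in tissue-type members, with a median of 0.49. Gzma had 281 and 157 CPM with AT38 and 225 and 245 CPM with vehicle in tissue-type members, against 25.9 and 12.4 CPM with AT38 and 0 and 10.9 CPM with vehicle in Ccr7-type members (3.88 ± 0.44, edgeR adjusted p = 0.000225). Nkg7 was higher by 1.11 ± 0.16, Ifng by 1.36 ± 0.30, Fasl (the death ligand) by 2.15 ± 0.56 and the chemokine gene Ccl4 by 1.31 ± 0.18. Gzmb, at 223 to 368 CPM in tissue-type and 0 to 87.1 CPM in Ccr7-type members, did not pass (3.23 ± 0.77, adjusted p = 0.0716), nor did Gzmk, Prf1 or Xcl1. Of 9 NK receptor genes, Klrd1 (1.38 ± 0.28) and Klrc2 (2.07 ± 0.36) were higher. Itga1 was higher by 2.79 ± 0.49, and the effector factors Prdm1 (2.10 ± 0.58) and Tbx21 (1.06 ± 0.40) did not pass. Gprin3 (6.97 ± 1.69), Tnfsf10 (4.92 ± 0.73) and Cx3cr1 (2.88 ± 0.55) were also among the largest rises picked by the naming rule. The retention gene Cd69 passed as lower in tissue-type members, at -0.63 to -0.37 over 9 alternative fits, and passed in 2 of these. The immediate early genes Fos, Ier2 and Zfp36 were lower as well, but each did not pass in some fits with 1 library left out.

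All 9 tested naive and recirculating genes were lower in tissue-type members, with a median of -2.22. Lef1 differed by -3.39 ± 0.40, Tcf7 by -2.63 ± 0.22, S1pr1 by -2.75 ± 0.30 and Klf2 by -2.12 ± 0.27. Il7r, the survival receptor of memory cells, had -1.22 ± 0.27. Ly6c2 had 163 and 114 CPM with AT38 and 179 and 152 CPM with vehicle in tissue-type members, against 319 and 1057 CPM with AT38 and 903 and 915 CPM with vehicle in Ccr7-type members. The subsets did not overlap (-2.47 ± 0.38, edgeR adjusted p = 0.00867). The survival gene Bcl2 (-1.10 ± 0.25) and Myb, a factor of stem-like T cells (-3.81 ± 0.62), were lower as well, and Eomes did not pass (-1.85 ± 0.68, adjusted p = 0.219). Of 10 mitochondrially encoded genes, 8 were lower, with a median of -0.59. The tissue-type cells were shallower, at median depths of 4737 to 5267 UMIs, against 6142 to 8996 UMIs in Ccr7-type cells, and the part of depth in these differences was not tested. The count was 116 genes without AT38 2 and 118 without vehicle 2, and in both fits Lag3, Ifng, Fasl, Klrd1, Il7r and Bcl2 did not pass. Ly6c2 did not pass without vehicle 2, Tox not without AT38 1 or AT38 2, Myb not without AT38 1, Fasl also not without AT38 1 or vehicle 1, and Ifng and Bcl2 also not without vehicle 1. Without cells holding other-cell UMIs, 456 of 2485 genes (18.4%) passed, Gzmb among them, and without the highest doublet scores Ccl4 did not pass.

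**Figure D3:**
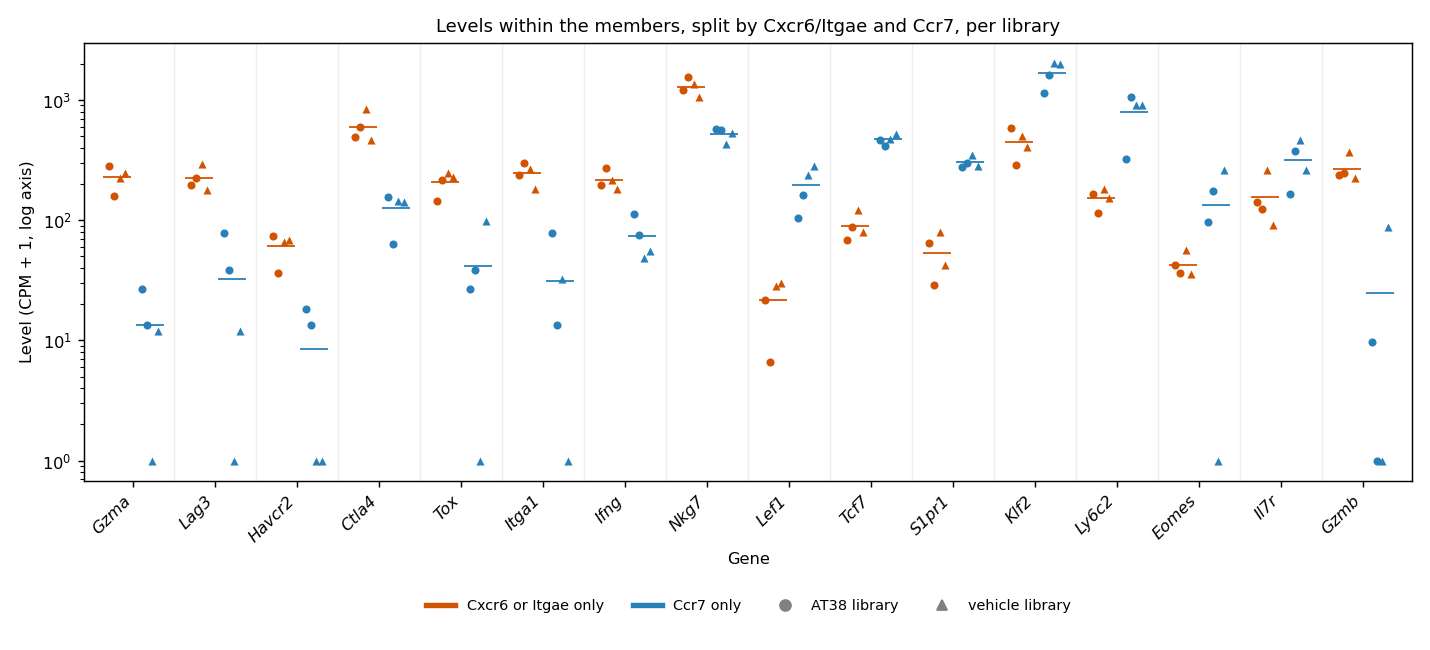
Level of 16 genes in members with Cxcr6 or Itgae UMIs only (orange) and with Ccr7 UMIs only (blue), as CPM plus 1 on a log axis, with 1 point per library (circles AT38, triangles vehicle) and a line at the mean. Lag3, Ctla4, Gzma and Nkg7 are above and Tcf7, S1pr1 and Ly6c2 below in the Cxcr6 or Itgae cells in every library.

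For AT38 against vehicle within the members, no gene of 8126 passed (0%; edgeR quasi-likelihood test). At an unadjusted p under 0.05, 82 genes were higher and 105 lower with AT38, and DESeq2 called 3. No gene of the 21 lists of T cell states and responses passed. Gzma had 355 and 186 CPM with AT38 and 156 and 186 CPM with vehicle, which overlapped (0.69 ± 0.34, log2, SE). Gzmb had 168 and 171 CPM with AT38 and 256 and 183 CPM with vehicle (-0.32 ± 0.21). Gzmk had 46.6 and 52.0 CPM with AT38 and 76.1 and 66.2 CPM with vehicle (-0.49 ± 0.24), with no overlap. Ifng (0.16 ± 0.26), Nkg7 (0.14 ± 0.20) and Ccl4 (0.34 ± 0.24) likewise had adjusted p-values of 1.00. The cytotoxic list had a median of -0.04 with 5 of 16 positive, beside a median of 0.00 over all genes.

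Some lists leaned to one side without a gene that passed. The naive and recirculating list had a median of -0.42 with 1 of 10 genes positive, and the heat shock list, of protein-folding chaperones, -0.38 with 0 of 9. The type I interferon response list had 0.22 with 12 of 16 positive. Lef1 had 28.8 and 31.9 CPM with AT38 and 59.2 and 67.8 CPM with vehicle. Both AT38 values were below both vehicle values (-1.06 ± 0.26, adjusted p = 1.00). Tsc22d3 (GILZ, which glucocorticoids switch on) had 108 and 123 CPM with AT38 and 199 and 184 CPM with vehicle (-0.70 ± 0.19). The heat shock gene Hspa1a had 174 and 156 CPM with AT38 and 363 and 266 CPM with vehicle (-0.89 ± 0.21).

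The genes nearest to the threshold belong to myeloid cells. Ccl8, a monocyte chemokine, had 73.2 and 139.5 CPM with AT38 and 8.45 and 8.17 CPM with vehicle (3.66 ± 0.41, adjusted p = 0.0544). Arg1, the arginine-degrading enzyme of myeloid cells, had 20.7 and 24.8 CPM with AT38 and 90.9 and 159 CPM with vehicle (-2.49 ± 0.32, adjusted p = 0.0774). Of their UMIs in members, 91.3% and 94.1% lay in cells with other-cell UMIs. Without those cells Ccl8 had 9.31 and 7.29 CPM with AT38 and 14.8 and 15.4 CPM with vehicle, and Arg1 had 6.98 and 12.8 CPM with AT38 and 7.42 and 9.62 CPM with vehicle. DESeq2 called both of them and Ccl1.

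Without the cells holding other-cell UMIs, 5 of 5875 genes (0.0851%) passed, named here after their values were seen. Klf2 had 489 and 569 CPM with AT38 and 1039 and 773 CPM with vehicle in the remaining members. It was lower by 0.76 ± 0.15 (edgeR adjusted p = 0.0289). Tsc22d3 had 140 and 135 CPM with AT38 and 256 and 252 CPM with vehicle (-0.89 ± 0.19, adjusted p = 0.0342). Txk, a TEC-family kinase of T cells, had 116 and 168 CPM with AT38 and 352 and 237 CPM with vehicle (-0.98 ± 0.21, adjusted p = 0.0342). The gene model Gm10076 was also lower (-0.78 ± 0.15) and Gm42418, which overlaps a ribosomal RNA repeat and is therefore uncertain, higher (0.51 ± 0.11). In all members these 3 T cell genes had the same direction without passing, Klf2 at -0.49 ± 0.16 and Txk at -0.72 ± 0.38. Without AT38 2, the fit over all members called 81 genes, 79 of them higher with AT38, without AT38 1 it called 4, without vehicle 1 it called 1 and without vehicle 2 it called 2. In AT38 1, then the only AT38 library, the neutrophil list stood at 6061 CPM and the epithelial and acinar list at 726 CPM. The epithelial and acinar list stood at 24.5 to 42.6 CPM in the other libraries. Whether such RNA had a part in the genes called without AT38 2 was not tested.

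**Figure D4:**
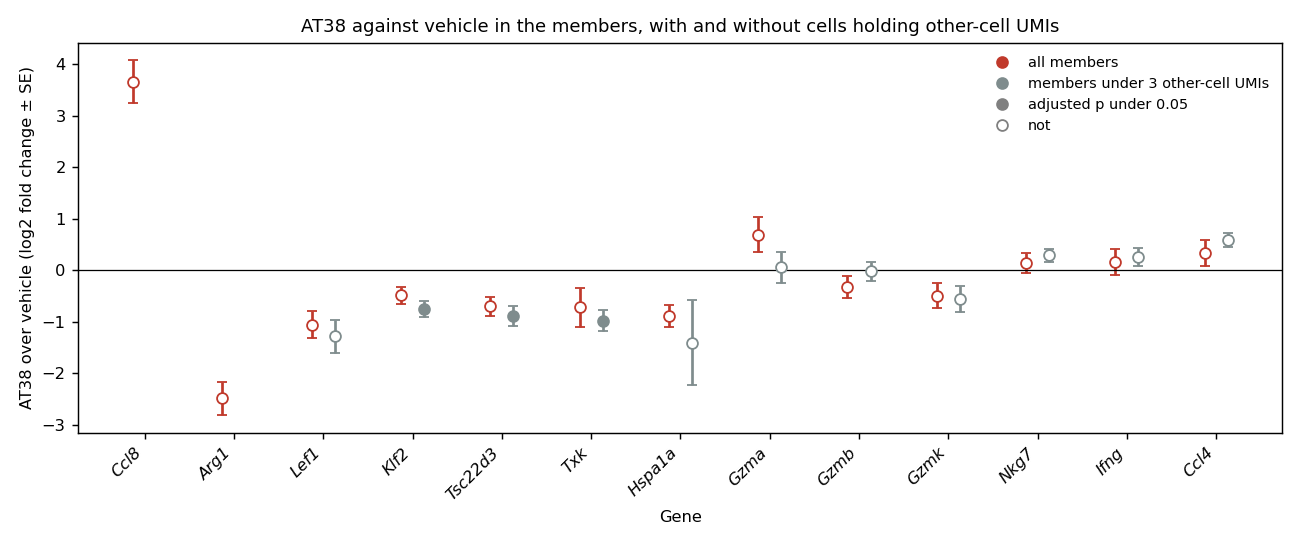
Log2 fold change of AT38 over vehicle with its SE (vertical axis) for 13 genes in all members (red) and in members without other-cell UMIs (grey), filled where the adjusted p is under 0.05. Klf2, Tsc22d3 and Txk are below 0 in both and filled only in grey, and Ccl8 and Arg1 are not tested in grey.

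The AT38 effect was also compared between classes. The interaction of class and treatment called 0 of 9192 genes (0%; edgeR quasi-likelihood test) between members and Pdcd1-positive cells, with 408 at an unadjusted p under 0.05. Without AT38 1, AT38 2, vehicle 1 and vehicle 2 in turn it called 3, 32, 22 and 84. Without cells holding other-cell UMIs it called 5 of 6883 (0.0726%). The AT38 fit in Pdcd1-positive cells itself called 0 of 9692 (0%), with 417 at an unadjusted p under 0.05, and 14 of 7441 (0.188%) without cells holding other-cell UMIs. With all Pdcd1-positive cells, Klf2 had a log2 fold change of -0.33 ± 0.32, Tsc22d3 -0.69 ± 0.18, Lef1 -1.11 ± 0.41 and Gzmb 0.51 ± 0.28, beside -0.49, -0.70, -1.06 and -0.32 in members. Between members and naive-like cells, 18 of 5379 genes (0.335%) passed, 9 (0.167%) with a positive and 9 (0.167%) with a negative difference of effects. The counts were 3, 25, 12 and 0 without AT38 1, AT38 2, vehicle 1 and vehicle 2 in turn, and without cells holding other-cell UMIs 1 of 3283 genes (0.0305%) passed, the galectin gene Lgals1 (3.96 ± 0.84, edgeR adjusted p = 0.0071). The 8 naive-like cells of AT38 2 held 36845 UMIs.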

How the data were processed

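The deposited values are raw UMI counts per gene and barcode, which the authors made with Cell Ranger 3.1.0 on mm10, per the submitters' processing notes. The annotation release is not given in the sources used here. Barcodes were kept with at least 200 genes, 500 UMIs and at most 10% mitochondrial UMIs (14855 of 18001). Classes were gated on raw UMIs and doublets were not removed. As an alternative, the 683 barcodes with the highest scrublet scores (scanpy 1.11.5), 28 of them members, were left out. The naive-like and subset rules are ones of this re-analysis, and 1 gene planned for both was left out of the rules and lists after results were known. It and 1 gene of the interaction test are not reported here. The members and the gene lists were chosen with earlier results of these data known.

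Counts were summed per library and class and tested with edgeR 4.0.16 in R 4.3.3 (quasi-likelihood, TMM, robust, filterByExpr), with Benjamini-Hochberg adjustment over all genes tested and a threshold of 0.05. Fits between classes had the library as a block. DESeq2 1.42.0 was an alternative. The fits were also run on simulated sums per library, with the same spread setting for every gene and no cells rich in single genes. For AT38 within members, 81 of 100 planted log2 changes of 1 were called with the right sign, with 6 false calls. That setting cannot show how the fits behave on libraries as uneven as these. Each library is a pool of 4 mice, so the p-values reflect variation among pools, not among mice. Shares were compared with exact two-sided permutation tests over libraries (scipy 1.17.1). Their 95% intervals are exact binomial and cover counting error only. Genes to name were picked by rule. The rule took the 10 largest changes in each direction that passed, on the same side in all libraries, then genes of the state lists. The mean had to be at least 10 CPM (AT38) or 20 CPM (classes). The text gives only part of the genes so picked, so those given are a selection. Other alternatives were RLE scaling, no filter, each library left out, other limits of the gate, a gate on cells thinned to 2000 UMIs and removal of cells with at least 3 other-cell UMIs.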

Additional observations from a re-analysis of the deposited data

Results flagged for a closer look

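For 18 genes the AT38 effect differed between members and naive-like cells in the edgeR interaction test (log2, adjusted p under 0.05), and 17 of them are given here. S100a9, Lyz2, Clec4e, Cd209a and Clec10a among them are genes of myeloid cells. Naive-like libraries held 8 to 20 cells, and 14 of these 17 had 0 UMIs in the naive-like cells of AT38 2.

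The difference of effects was positive for Thbs1 (3.96), Hdc (9.24), Id1 (9.35), S100a9 (5.48), Clec4e (8.82), Lyz2 (2.21), Clu (6.45) and Lgals1 (2.22). S100a9, a neutrophil gene, had 2196 and 301 CPM with AT38 and 368 and 244 CPM with vehicle in members, and 5 and 0 UMIs with AT38 and 3 and 65 UMIs with vehicle in naive-like cells. Hdc, Id1 and Clec4e had 0 UMIs in both naive-like AT38 libraries, so that their fitted values depend on the prior count and are no bound.

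It was negative for Rgs16 (-1.88), AA467197 (-2.32), Cxcl9 (-8.52), Ifitm1 (-4.09), Cd209a (-6.32), Cbfa2t3 (-9.01), Clec10a (-4.38), Cd83 (-2.12) and H2-DMb2 (-5.08). Cxcl9 and Cbfa2t3 had 0 UMIs in both naive-like vehicle libraries, with the same limit. Cd209a, a lectin gene of dendritic cells, had 40 and 0 UMIs with AT38 and 1 and 0 UMIs with vehicle in naive-like cells, and all its UMIs in members lay in cells with other-cell UMIs. Rgs16, a regulator of G-protein signalling in activated T cells, had 386 and 469 CPM with AT38 and 444 and 510 CPM with vehicle in members, and 34 and 24 UMIs with AT38 and 12 and 13 UMIs with vehicle in naive-like cells.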

How the results depend on the processing

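For AT38 within members, where 0 genes passed, DESeq2 called 3, no filter 32, removal of doublet scores 2, removal of cells with other-cell UMIs 5, Ccl5 of at least 3 UMIs 2, the gate at 2000 UMIs 2, removal of Trdc cells 1 and at most 5% mitochondrial UMIs 2. Leaving out 1 library gave 1 to 81. Replicate numbers were treated as names, and the main fit did not pair libraries by them. Same-numbered libraries deviated from their group means with a correlation of -0.262. With 2 libraries per group both pairs must give the same value, so it cannot show whether the numbers mark a pairing. With the replicate block 1 gene passed, and the log2 fold change of the share among kept cells was 0.61. A crossed block, chosen after seeing the data, gave 72. That share had 0.87 at 5% mitochondrial UMIs, and 0.32 to 0.98 with 1 library left out.

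Against Pdcd1-positive cells, DESeq2 called 95, no filter 546 and removal of cells with other-cell UMIs 631, and leaving out 1 library gave 43 to 348. Against naive-like cells DESeq2 called 140 and leaving out 1 library gave 172 to 277. Between subsets the range was 116 to 173, with 323 without a filter and 456 without cells holding other-cell UMIs. For the interaction with Pdcd1-positive cells it was 3 to 84, and 5 without cells holding other-cell UMIs. For the interaction with naive-like cells it was 0 to 25, and 1 without cells holding other-cell UMIs.

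Signs reversed as follows, and the cause was not tested. For AT38, at the 2000 UMI gate Gzma had -0.25 and Gzmk 0.10. Without AT38 2, Nkg7 had -0.17 and Ifng -0.28, the lowest values with 1 library left out, where the highest were 0.39 and 0.50. Ifng had -0.024 at 5% mitochondrial UMIs. Against Pdcd1-positive cells, that gate gave Gzmb 0.38, Prf1 0.10, Mmp9 0.071 and Mmp13 2.63. Gzmb had 0.19 without AT38 1 and 0.014 without AT38 2, in a range of -0.22 to 0.19. Ccl4 had -0.040 without AT38 2 and -0.084 without vehicle 2, in a range up to 0.36. Clec10a had -1.04 without cells holding other-cell UMIs. Against naive-like cells Ly6c2 had -0.051 without AT38 2, in a range up to 0.36. Naive-like values rest on 8 to 20 cells per library.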
